A study of Mus musculus with 2 samples.

Results

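Gpr84 is the row with that symbol (ENSMUSG00000063234), 1 of 31053 genes listed in each of 2 single-cell RNA libraries, and it was chosen because its level had been seen to differ between them. The cells were bone marrow cells of wild-type 129Sv mice grown towards macrophages in RPMI-1640 with 10% serum and the growth factor M-CSF (macrophage colony-stimulating factor, 50 ng/ml), with medium added on day 3 and partly replaced on day 6. On day 7 they received, for 18 h, Tamm-Horsfall protein in a truncated form that does not polymerize, at 1 µg/ml (the THP library), or 5% dextrose (the vehicle library). Tamm-Horsfall protein, also called uromodulin, is a kidney glycoprotein. Each group had 1 library, the number of mice behind it is not given in the labels, and treatment and library cannot be told apart. No test was possible, and every value of Gpr84 below is a description.

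Gpr84 encodes a G protein-coupled receptor found mainly on monocytes, macrophages and neutrophils. Medium-chain fatty acids and their hydroxylated forms act on it, it signals through inhibitory G proteins of the Gi class, and it is known for being induced when myeloid cells meet bacterial products such as lipopolysaccharide. Its activation is known to promote chemotaxis, phagocytosis and cytokine release.

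In the GENCODE M21 annotation of GRCm38 the gene lies on the minus strand at chr15:103308235-103310612. It has 2 exons. Exon 1 (chr15:103310310-103310612) is untranslated, and exon 2 (chr15:103308235-103309656) holds the whole coding sequence at chr15:103308461-103309648. An antisense gene on the plus strand, Gm49482 (ENSMUSG00000116308), overlaps 843 bases of it. Gm49482 held 37 UMIs with THP and 10 with vehicle, against 42125 and 7287 for Gpr84. How strand was treated in counting is not stated in the sources used here, so reads of the overlap could have been split between them.

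Gpr84 and the neutrophil chemokine genes Cxcl1 and Cxcl2 were among the 10 genes with the highest ratios of the THP to the vehicle library, and 30-base stretches of their promoter windows are printed to show how near their letters are. The stretches come from the RefSeq windows of GRCm38.p6, which run from 250 bases before to 50 after an annotated start, and are written 5′ to 3′ along the gene. Capitals mark GGGAATTTCC in Cxcl1 and Cxcl2, a match to the kB motif GGGNNNNNCC, and the closest run of 10 letters in Gpr84.
Gpr84, chr15:103310553-103310582, minus strand: taagttgcagGGGAATTTCAacagagaagc
Cxcl1, chr5:90891164-90891193, plus strand: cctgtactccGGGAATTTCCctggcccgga
Cxcl2, chr5:90903792-90903821, plus strand: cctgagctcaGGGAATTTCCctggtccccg
Counted from 1 at the first capital, the Gpr84 run matched 9 of 10 letters and differed by C10A. It began 134 bases before the start on which its window is built, against 71 for Cxcl1 and 97 for Cxcl2. In the GENCODE annotation it lies inside exon 1, and it also lies within the gene as RefSeq draws it, which reaches to position 103310670. Of 32851 windows, 632 (1.92%) matched at least 9 of the 10 letters on either strand. The run was compared after the values were known. The looser motif GGGNNNNNCC was in 50.8% of windows and in 17 of 25 lipopolysaccharide-inducible genes that had a window, but not in that of Gpr84. The AP-1 motif TGANTCA (7.81% of windows), the PU.1 motif GAGGAAGT (3.20%) and the interferon-type motif GAAANNGAAA (3.44%), each searched on both strands, were likewise not among the letters of the Gpr84 window. These are matches of letters, and no binding was measured.

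After filtering, the THP library held 12123 of 13193 barcodes with a median of 16113 unique molecular identifiers (UMIs, each counting 1 captured RNA molecule), and the vehicle library 10978 of 11584 with a median of 17223. The 2 libraries shared 42 barcode sequences, 38 of them kept. The median share of mitochondrial UMIs was 2.92% and 3.22%. Gates on summed lineage markers, which never used Gpr84, left 937 THP and 650 vehicle cells without a type. The 2 macrophage gates held 33.2% and 8.61% of THP cells and 21.5% and 7.29% of vehicle cells, so the labelled cell type was present beside neutrophils, progenitors, monocytes and smaller groups.

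Summed over all kept cells, Gpr84 was at 187 CPM (counts per 1000000 UMIs; exact Poisson 95% interval 186 to 189) in the THP library. It was at 35.1 CPM (34.3 to 35.9) in the vehicle library. The THP value was 5.34 times the vehicle value (5.21 to 5.47), a log2 ratio of 2.38 on CPM + 1. These intervals and those below cover counting error only, and in such sums more cells with the RNA and more RNA per cell are mixed. Among 8012 genes at 10 CPM or more in at least 1 library, 73 (0.911%) were at least 2-fold higher in the THP library and 238 (2.97%) at least 2-fold lower. Gpr84 stood eighth from the top. The genes above it were Acod1, Saa3, Cxcl1, Ccl4, Il1b, Tnf and Ccl3, which encode the enzyme that makes itaconate, an acute-phase protein, chemokines and cytokines. The median log2 ratio of all 8012 genes was -0.18. With TMM scaling, which moves that median to 0.11, Gpr84 was at 2.66, and the counts turned to 138 higher (1.73%) and 69 lower (0.867%).

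The share of cells with a Gpr84 UMI and the number of its UMIs in such cells were both higher with THP. Both depend on the mean per cell, so they are not separate observations, and a cell without a UMI may still hold the RNA. In the THP library 76.5% of cells (75.7 to 77.2, exact Clopper-Pearson) had at least 1 Gpr84 UMI, and in the vehicle library 34.2% (33.3 to 35.1). Cells were then thinned at random to 5000 UMIs each, which left out 1958 shallower THP cells and 1966 vehicle cells. The share became 53.0% (52.0 to 53.9) against 14.3% (13.6 to 15). Cells with 2 or more Gpr84 UMIs made up 23.5% and 2.40%. A cell with Gpr84 held on average 1.74 UMIs of it with THP and 1.21 with vehicle at that depth. As sequenced, the highest single cell held 41 Gpr84 UMIs with THP and 21 with vehicle.

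Mature neutrophil-gated cells had the highest Gpr84 level in both libraries, at 273 CPM (257 to 289) with THP and 46.3 CPM (40.2 to 53.0) with vehicle, a ratio of 5.89. The vehicle interval overlapped those of the macrophage and monocyte gates. These cells were shallow, with medians of 2358 and 2210 UMIs, and are known by genes such as S100a8, S100a9 and Retnlg. Immature neutrophil-gated cells, which carry granule genes such as Ngp and Camp, were at 170 CPM (160 to 180) and 39.0 CPM (35.3 to 43.1). Their most common cluster differed between libraries: cluster 0 held 52.2% of them in the THP library and cluster 1 held 63.3% in the vehicle library. Myeloid progenitor-gated cells, with Mpo and Elane, were lower again at 114 CPM (110 to 118) and 24.9 CPM (23.3 to 26.5). The order progenitor, immature, mature was therefore the same in both libraries, and only the step from immature to mature in the vehicle library had overlapping intervals.

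Macrophage-gated cells held the largest part of the Gpr84 RNA. The marker-low macrophage gate (summed macrophage markers at 8 to 40 per 10000 UMIs) had 215 CPM (212 to 218) over 4030 THP cells and 41.7 CPM (40.1 to 43.3) over 2360 vehicle cells, a ratio of 5.15 (4.95 to 5.37). This gate alone carried 52.4% of all Gpr84 UMIs with THP and 35.9% with vehicle. The marker-high gate (40 or more) was at 238 CPM (231 to 244) and 41.6 CPM (38.6 to 44.8), a ratio of 5.71 (5.28 to 6.18). In the THP library the marker-high value was above the marker-low value, while in the vehicle library their intervals overlapped almost entirely. Both gates are ranges of one summed score, with 671 of 6390 marker-low and 465 of 1844 marker-high cells within 20% of a limit.

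Monocyte-gated cells, with Ly6c2 and Ccr2, were at 204 CPM (196 to 211) with THP and 45.3 CPM (42.6 to 48.0) with vehicle, a ratio of 4.50 (4.19 to 4.83). They stood below both macrophage gates in the THP library. In the vehicle library their value was not below those of either macrophage gate, and the intervals overlapped. MHC class II-high cells were at 161 CPM (152 to 171) and 29.8 CPM (26.4 to 33.4). Osteoclast-like cells, which express Ctsk and Acp5, had 108 CPM (104 to 113) and 23.9 CPM (22.1 to 25.9), a level whose interval overlapped that of the progenitors in each library. Cells with no gate were at 180 CPM and 34.5 CPM.

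The 5 smallest gates, mostly of cell types in which the receptor is little known, also had more Gpr84 in the THP library. B-lineage cells overlapped the progenitor and osteoclast-like gates in both libraries, and the other 4 gates lay below those. Stromal cells, with Col1a1 and Dcn, were at 47.7 CPM (38.8 to 58.0) with THP and 8.23 CPM (5.32 to 12.1) with vehicle. T or NK-gated cells held 40 Gpr84 UMIs (75.7 CPM) against 2 (4.09 CPM), a ratio of 18.5 with an interval of 4.8 to 158. B-lineage cells held 40 against 9, at 101 CPM (71.8 to 137) and 27.2 CPM (12.5 to 51.7). Dendritic-gated cells held 13 UMIs with THP and 0 with vehicle, so the THP level of 37.7 CPM was at least 5.82-fold higher, taking 3 UMIs in that gate as the limit that a count of 0 allows. Mast or basophil-gated cells also held 13 against 0, at 31.5 CPM and at least 3.81-fold higher.

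Taken as 1 group, those 5 small gates were at 54.5 CPM (47.3 to 62.4) over 390 THP cells and 7.68 CPM (5.38 to 10.6) over 320 vehicle cells. At 5000 UMIs per cell, a Gpr84 UMI was found in 15.9% (11.1 to 21.8) of 195 THP cells, against 1.05% (0.128 to 3.75) of 190 with vehicle, and 195 and 130 shallower cells were left out. The median depths before thinning were 5000.5 and 5972.5 UMIs. As sequenced the shares were 18.2% and 5.31%. Within the group, the THP share was 27.3% (10.7 to 50.2) in B-lineage cells and 20% (9.05 to 35.6) in T or NK-gated cells. The pooled share serves below as a reference level for the 8 larger gates. The pool is not free of myeloid cells, since it includes the mast or basophil and dendritic gates. Their shares at 5000 UMIs were 6.90% and 16.7% with THP, and 0% in both with vehicle. The part of free RNA and of doublets in the levels of these 5 gates was not tested. Their Gpr84 UMIs were unevenly spread with THP: as sequenced, 31.7% of stromal cells had Gpr84, with 3.85 UMIs per such cell. In the pooled group the variance was 1.38 times the mean at 5000 UMIs and 2.99 times at 10000 with THP. With vehicle it was 0.995 and 0.965 times. In the THP library the intervals of the B-lineage, T or NK and dendritic gates reached that of osteoclast-like cells, and in the vehicle library those of the B-lineage, T or NK and mast or basophil gates reached that of MHC class II-high cells. The 8 larger gates were all above the pooled share. With THP they ran from 37.4% (osteoclast-like) to 64.5% (mature neutrophil). With vehicle they ran from 10.7% (MHC class II-high) to 22.8% (mature neutrophil). The mature neutrophil shares rest on 282 THP and 285 vehicle cells, with 747 and 774 shallower ones left out. At 2000 UMIs per cell that gate was still highest in the THP library, at 40.5%. In the vehicle library it was at 7.44% (5.50 to 9.80), beside 8.13% (6.63 to 9.85) in monocytes.

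**Figure D1:**
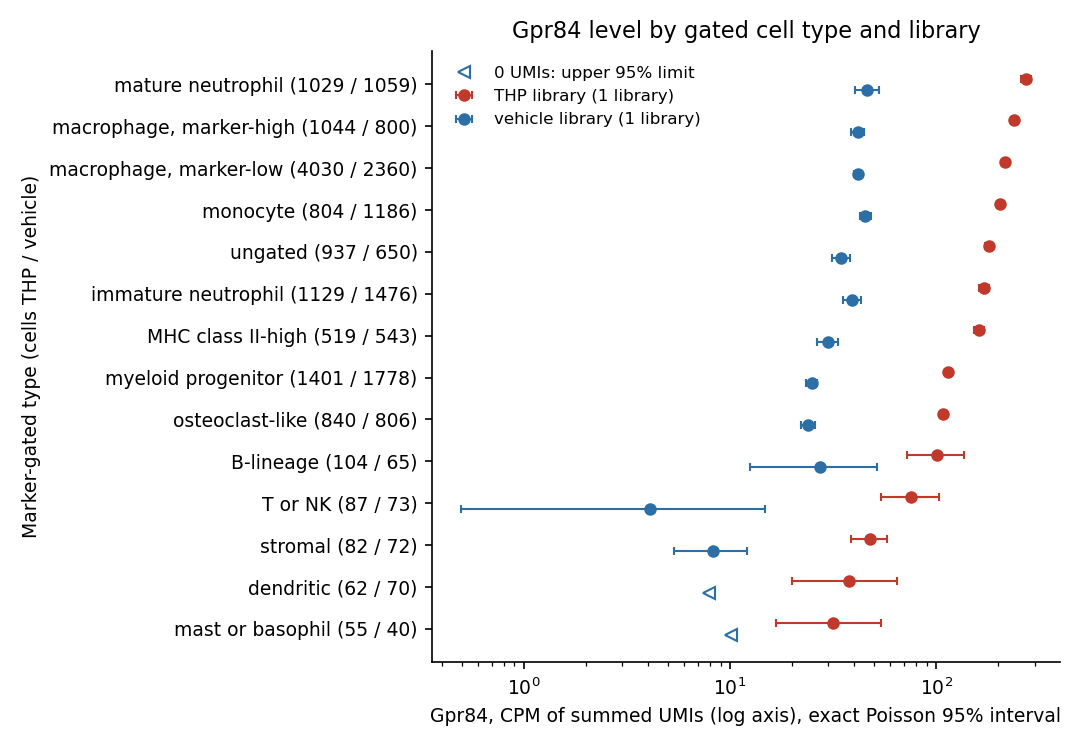
Gpr84 in CPM of summed UMIs (log axis) for each marker-gated type, ordered by the THP library, with exact Poisson 95% intervals. The THP point lies to the right of the vehicle point in all 13 gates and in the ungated cells. The 8 gates with 500 or more cells lie between 108 and 273 CPM in the THP library and between 23.9 and 46.3 CPM in the vehicle library.

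In all 13 gates Gpr84 was at least 2-fold higher in the THP library. Of the genes tested in a gate, the share that passed the same fold was 0.776% in monocytes, 0.805% in osteoclast-like cells, 1% in progenitors, 1.15% in marker-low and 1.16% in marker-high macrophages. It was 1.29% in MHC class II-high cells, 1.7% in immature and 2.26% in mature neutrophils. In the 5 small gates it was higher: 2.83% in stromal, 4.7% in T or NK, 6.18% in mast or basophil, 6.8% in dendritic and 8.35% in B-lineage cells. In the 8 larger gates the place of Gpr84 from the top ran from 10 of 7734 genes in monocytes and 10 of 7888 in progenitors to 14 of 7816 in marker-low macrophages and 29 of 7062 in immature neutrophils. Its ratio there lay between 4.35 and 5.89, a narrow range beside the range of levels. The gates differ in depth and were set with these data in view.

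Within marker-low macrophages the level changed little with cell cycle or depth. Cells with the cycling markers (20 or more per 10000 UMIs) were at 209 CPM with THP and 39.7 CPM with vehicle, against 218 and 43.6 CPM in the rest. By depth, cells under 15000 UMIs, from 15000 to 30000 and of 30000 or more were at 220, 227 and 204 CPM in the THP library, and at 40.9, 42.5 and 41.1 CPM in the vehicle library.

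Single cells of this gate spread widely. As sequenced, 9.03% of THP cells had no Gpr84 UMI, 28.5% had 3 to 5, 24.3% had 6 to 10 and 14.3% had 11 or more. In the vehicle library 54.4% had none, 10.4% had 3 to 5, 3.22% had 6 to 10 and 0.424% had 11 or more. The THP cells therefore formed a broad range reaching down to 0, and the highest vehicle cells lay inside it. At 5000 UMIs per cell Gpr84 was found in 60.1% (58.5 to 61.6) of THP cells, against 15.6% (14.1 to 17.2) with vehicle. The variance of its UMIs over cells was 1.45 times the mean in the THP library and 1.42 times in the vehicle library, where counting alone gives 1. The neighbouring gene Copz1, a coat protein subunit, gave 1.07 and 1.01, while Tnf gave 2.32 and 2.00. These values depend on the mean, which for Gpr84 was 1.10 UMIs per cell with THP and 0.201 with vehicle. It was 0.397 and 0.383 for Copz1, and 0.684 and 0.138 for Tnf. They therefore do not show whether the relative spread was alike between libraries or genes.

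**Figure D2:**
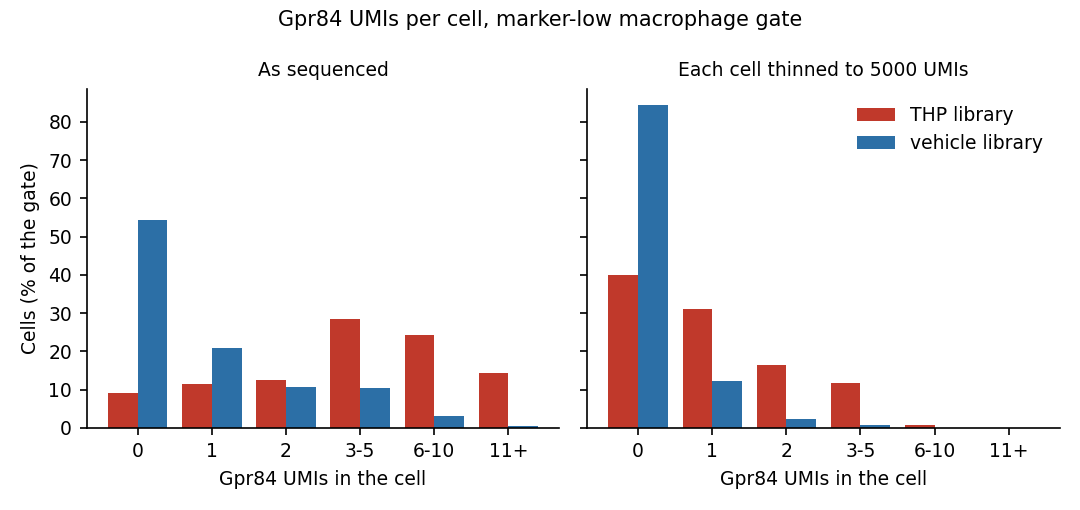
Share of marker-low macrophage cells (vertical axis, % of the gate) by number of Gpr84 UMIs in the cell, as sequenced (left) and after thinning to 5000 UMIs (right), for the THP and vehicle libraries. As sequenced, 9.03% of THP cells and 54.4% of vehicle cells had none, and after thinning 39.9% and 84.4%.

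The 2 libraries filled different clusters of that gate, and Gpr84 followed the cluster as well as the library. The clusters were made without Gpr84, but from genes that include the inflammatory genes named here. Cluster 5 held 3470 (86.1%) of the marker-low macrophages of the THP library and 64 (2.71%) of those of the vehicle library. Cluster 10 held 61 (1.51%) and 1823 (77.2%). In cluster 5 Gpr84 was at 219 CPM (216 to 222) in THP cells and 145 CPM (126 to 167) in vehicle cells, a ratio of 1.5 (1.31 to 1.73). In cluster 10 it was at 132 CPM (111 to 155) in THP cells and 39.3 CPM (37.6 to 41.1) in vehicle cells, a ratio of 3.35 (2.82 to 3.96). Both ratios were below the 5.15 of the whole gate, and in each library the cells of cluster 5 had more Gpr84 than those of cluster 10.

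The same vehicle cells stood apart in other genes. In cluster 5 they had 52.5 CPM of Acod1 (41.2 to 65.9) and 430 CPM of Clec4e (396 to 465), a receptor that senses damaged cells and mycobacteria. In cluster 10 the vehicle cells had 2.88 and 113 CPM. Saa3 did not follow: vehicle cells had 16.3 CPM (10.3 to 24.5) in cluster 5 and 17.0 CPM (15.9 to 18.2) in cluster 10, against 161 CPM in THP cells of cluster 5. Copz1 was at 62.4 and 73.3 CPM in the vehicle cells of clusters 5 and 10, with overlapping intervals. Gpr84 was higher in the THP library in each of the 18 clusters of the whole data. It was at least 2-fold higher in 17 on the CPM + 1 scale, the exception being cluster 5. Some of these rest on few UMIs, such as 8 against 0 in cluster 13 and 31 against 1 in cluster 7. The ratio had an interval of 1.48 to 3.49 in cluster 1 and of 1.58 to 14.9 in cluster 11. The share of all genes past 2-fold was not worked out by cluster.

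**Figure D3:**
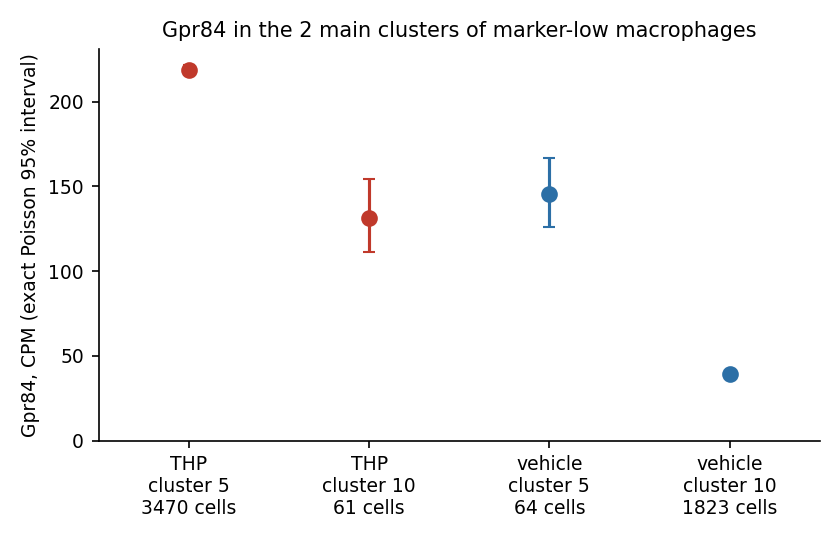
Gpr84 in CPM with exact Poisson 95% intervals for marker-low macrophages of clusters 5 and 10 in each library, with the number of cells under each point. THP cells of cluster 10 (132 CPM) and vehicle cells of cluster 5 (145 CPM) lie between the main THP group (219 CPM) and the main vehicle group (39.3 CPM).

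Genes whose levels followed that of Gpr84 were ranked by Pearson r of log2(CPM + 1) over 17 points, each a gated type of at least 100 cells in 1 library, among 9631 genes. The 10 highest were Ier3 (0.90), Tnf (0.89), Timm10b (0.89), Tnip1 (0.88), Bcl3 (0.88), Nfkbib (0.88), Saa3 (0.88), Acod1 (0.88), Sod2 (0.88) and Clec4e (0.87). Tnip1, Bcl3 and Nfkbib encode regulators of NF-kB, and Sod2 a mitochondrial superoxide dismutase. The points come from 2 libraries, share their ambient RNA and depth, and any gene higher in the THP library gains from that. Within 1 library the likeness was weaker for most of them. Ier3 kept 0.91 over the 9 THP points and 0.79 over the 8 vehicle points, and Clec4e 0.88 and 0.61. Acod1 had 0.57 and 0.28, Tnip1 0.75 and -0.19, and Nfkbib 0.63 and -0.27.

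Ranking within a library, a rule added after these values were seen, brought up further genes, with Ier3 again among the 10 highest of the THP library. Pik3cg, the catalytic subunit of the phosphoinositide 3-kinase that Gi-coupled receptors activate in myeloid cells, had r = 0.93 over the 9 THP points and 0.83 over the 8 vehicle points. Capza1, an actin-capping subunit, had 0.89 and 0.93. Pik3cg differed little between the libraries as a whole, at 50.3 CPM with THP and 60.2 CPM with vehicle. Its highest level was in mature neutrophil-gated cells (70.2 and 92.8 CPM), where Gpr84 was also highest, and its lowest among the larger gates in osteoclast-like cells (32.3 and 41.8 CPM), where Gpr84 was lowest.

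Between single cells of the marker-low macrophage gate at 5000 UMIs, the 2334 THP cells with a Gpr84 UMI were set beside the 1552 without, and the 353 vehicle cells with one beside the 1909 without. The 10 genes with the best mean rank of 7173 were Serpinb2, Arl5c, Aoah, Saa3, Slpi, Mcemp1, Cd33, Hp, Ccl12 and Clec4e. Serpinb2, an inhibitor of plasminogen activators, was at 103 CPM in THP cells with Gpr84 and 67.5 without, and at 79.3 and 42.5 CPM in vehicle cells. Aoah, which removes fatty acyl chains from lipopolysaccharide, was at 24.7 and 18.0 CPM, and 22.7 and 10.1 CPM. Slpi, a protease inhibitor, was at 43.4 and 32.2 CPM, and 58.4 and 24.2 CPM. In the THP library these differences were below 2-fold, though outside the range of most genes, as the ranking picks them. There 95% of all genes had log2 differences between -0.26 and 0.26, and in the vehicle library between -0.47 and 0.43. Serpinb2 was at 0.61 and 0.88. Only 3 of the 10 remained among the 10 highest at 2000 UMIs per cell.

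At the other end stood Pparg, the lipid-sensing nuclear receptor of macrophages, with 7.11 CPM in THP cells with Gpr84 and 12.2 without, and 6.23 and 13 CPM in vehicle cells. Abcg1, a cholesterol exporter, was at 9.86 and 17.4 CPM, and 14.7 and 22.7 CPM. Cd5l, a secreted macrophage protein, was at 11.7 and 16.4 CPM, and 7.37 and 11.4 CPM. These 3 were lower in Gpr84-bearing cells of both libraries. They were picked from the low end of the same ranking after it was seen. That ranking averages both libraries, so the shared direction comes in part from the choice. The vehicle values with Gpr84 rest on 353 cells, the levels are low, and no interval was computed.

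With more Gpr84 in a cell, Acod1 was higher in both libraries. THP cells with 0, 1, 2 and 3 or more Gpr84 UMIs had 70.7, 84.7, 99.5 and 141 CPM of Acod1. Vehicle cells in the same order had 3.56 (2.47 to 4.98), 8.60 (4.44 to 15), 43.6 (22.5 to 76.2) and 63.2 CPM (23.2 to 137), resting on 34, 12, 12 and 6 Acod1 UMIs in 1909, 279, 55 and 19 cells. Clec4e went from 358 to 517 CPM between THP cells with 0 and with 3 or more, and from 107 to 463 CPM in vehicle cells. Cd14, the lipopolysaccharide co-receptor, went from 1066 to 1498 CPM and from 462 to 811 CPM. These 3 genes were picked, and others of the lipopolysaccharide-inducible list did not all rise. Il1rn went from 30.7 CPM (26.9 to 34.8) to 18.9 CPM (13.9 to 25.3) in THP cells. In vehicle cells it went from 18.4 CPM (15.8 to 21.4) to 52.6 CPM (17.1 to 123). Ier3 rose from 112 to 142 CPM in THP cells. In vehicle cells it was at 48.7 CPM (44.4 to 53.4) and 21.1 CPM (2.55 to 76.0), with overlapping intervals.

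For Saa3 and Cxcl10 the order of values was not the same in the 2 libraries, and this was not tested. Saa3 went from 134 to 287 CPM in THP cells. In vehicle cells it was at 34.4 CPM (25.4 to 45.6) with 1 Gpr84 UMI and at 7.27 CPM (0.881 to 26.3) with 2. The last value rests on 2 Saa3 UMIs in 55 cells. The variance of Saa3 UMIs over cells was 12.2 times the mean with THP and 13.7 times with vehicle. Its counting intervals are therefore too narrow, and no difference between libraries can be read from them. Cxcl10 was at 94.2 CPM in THP cells without Gpr84 and 82.3 CPM with 3 or more, whose intervals overlap, but went from 27.2 CPM (24.0 to 30.8) to 158 CPM (88.4 to 260) in vehicle cells. For Copz1 and the macrophage marker Cd68 the interval at 3 or more Gpr84 UMIs overlapped that at 0 in both libraries. The share of vehicle cells that lay in cluster 5 was 1.78% (1.24 to 2.48) without Gpr84, 4.66% (2.5 to 7.84) with 1 UMI and 17.6% (9.70 to 28.2) with 2 or more. The part of cluster 5 in these vehicle values was not tested. Cxcl10 was at 20.6 CPM (13.8 to 29.5) in the vehicle cells of cluster 5 and 6.86 CPM (6.16 to 7.63) in those of cluster 10. Over the whole gate it was at 35.2 CPM with vehicle. The 158 CPM above rests on 15 Cxcl10 UMIs in 19 cells.

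**Figure D4:**
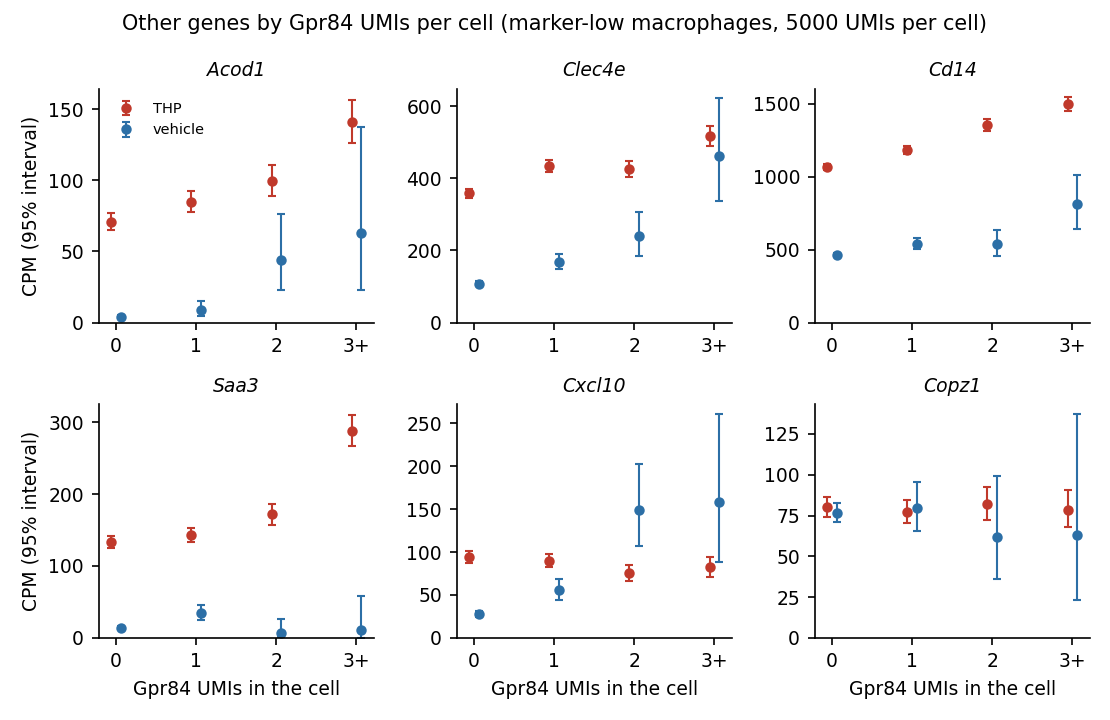
Level of 6 genes (CPM with exact Poisson 95% intervals) in marker-low macrophages grouped by the number of Gpr84 UMIs per cell after thinning to 5000 UMIs, in each library. Acod1, Clec4e and Cd14 are higher at 3 or more UMIs than at 0 in both libraries, Saa3 in the THP library, Cxcl10 in the vehicle library, while the Copz1 intervals overlap throughout.

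In mature neutrophil-gated cells, at 2000 UMIs each, 272 of 672 THP cells and 46 of 618 vehicle cells had Gpr84. Cells with Gpr84 lay more often in cluster 0, at 81.6% against 64.0% of those without in the THP library, and 67.4% against 39.3% in the vehicle library, and the part of the cluster in the values below was not tested. Slpi was among the 3 best-ranked genes there, at 2373 CPM with Gpr84 and 1075 without in the THP library, and 1294 and 424 CPM in the vehicle library. Il1b, the interleukin-1 beta gene, was at 1177 and 605 CPM, and 337 and 117 CPM. In monocyte-gated cells at 5000 UMIs, those with Gpr84 lay more often in cluster 14. The shares with and without Gpr84 were 68.5% and 62.0% in the THP library, and 84.8% and 74.2% in the vehicle library. The part of that cluster was not tested either. The 2 best-ranked genes in monocytes were the chemokines Ccl4 and Cxcl2. Ccl4 was at 170 and 56.1 CPM in the THP library and 27.3 and 10.9 CPM in the vehicle library. Cxcl2 was at 453 and 219 CPM, and 110 and 52.0 CPM. These genes were picked from the top 10 of each gate after the ranking was seen, and the other members included Slc39a4, Ddx23 and Agpat4 in neutrophils and Trmt11 and Naa40 in monocytes. Ccl3 and Ccl4 are close relatives, and counting could have split reads between them.

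Summed over all kept cells, most other receptors of lipids and metabolites did not share the difference of Gpr84. Of 24 listed, 23 are in the files and 12 were at 10 CPM or more. Only Hcar2 was at least 2-fold higher in the THP library and only Lpar6 at least 2-fold lower, where 0.911% and 2.97% of all tested genes were. The median log2 ratio of the 12 was -0.11, beside -0.18 for all genes. Hcar2, the receptor of niacin and beta-hydroxybutyrate, was at 16.1 CPM (15.6 to 16.6) with THP and 5.99 CPM (5.66 to 6.33) with vehicle. In mature neutrophils, where it was highest, Hcar2 was at 125 and 93.7 CPM, a log2 ratio of 0.42, and in monocytes at 27.7 and 5.99 CPM, a log2 ratio of 2.04. Gpr84 had 2.53 and 2.14 in those gates. In marker-low and marker-high macrophages Hcar2 had 1.88 and 1.97, beside 2.34 and 2.48 for Gpr84. Lpar6, a lysophosphatidic acid receptor, was at 22.4 and 46.8 CPM, a log2 ratio of -1.03 that became -0.75 with TMM scaling.

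Over all kept cells the remaining 10 receptors were within 2-fold. Those farthest from 0 were S1pr1, a sphingosine-1-phosphate receptor, at -0.89 on the log2 scale, the leukotriene B4 receptor gene Ltb4r1 at -0.81 and the oxysterol receptor gene Gpr183 at -0.79. With TMM scaling these became -0.62, -0.53 and -0.51, and Gpr132 (1.00) and Ptger4 (0.93) were then farther from 0 than these 3. In single gates some of the 10 passed 2-fold, in either direction. Gpr132 was at 29.8 and 8.90 CPM in mature neutrophils, a log2 ratio of 1.64. In marker-low macrophages S1pr1 was at -1.43 and Gpr183 at -1.15. The receptors that sense free fatty acids of other chain lengths were low or did not differ by 2-fold. Ffar2, a short-chain fatty acid receptor, was at 7.90 and 10.6 CPM, and highest in immature neutrophils (101 and 97.9 CPM). The long-chain receptors Ffar1 and Ffar4 had 5 and 70 UMIs in the THP library and 5 and 113 in the vehicle library, and Ffar3 had 0 UMIs in both.

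Of 35 genes of Gi signalling and receptor desensitisation, 26 were at 10 CPM or more. Pde4b and Pik3r5 were at least 2-fold higher in the THP library, and Plcb2 at least 2-fold lower, beside 0.911% and 2.97% of all tested genes. The median log2 ratio was -0.24, beside -0.18 for all genes. Pde4b, a phosphodiesterase that breaks down cyclic AMP, was at 27.4 and 9.99 CPM. Pik3r5, the regulatory partner of Pik3cg, was at 60.3 and 23.6 CPM. Plcb2, a phospholipase activated by G protein subunits, was at 15.4 and 35.5 CPM, a log2 ratio of -1.15 that became -0.88 with TMM scaling. Pde4d was at -0.89 and Rgs2, which shortens G protein signals, at -0.83 on the log2 scale. The main Gi subunit gene of these cells, Gnai2, was at 1069 and 1131 CPM, and the arrestin gene Arrb2 at 160 and 124 CPM.

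Of 28 genes of fatty acid oxidation and medium-chain handling, 22 were at 10 CPM or more. None was at least 2-fold higher and only Crot at least 2-fold lower, beside 0.911% and 2.97% of all tested genes. Counts this small do not set the list apart from all genes. Crot, which moves medium-chain acyl groups out of peroxisomes, was at 11 and 27.6 CPM, a log2 ratio of -1.26 that became -0.99 with TMM scaling. Cpt1a, the entry enzyme of mitochondrial oxidation, was at -0.78, Abcd3 at -0.63, Hadha at -0.62 and Acadm, the medium-chain acyl-CoA dehydrogenase, at -0.48. The median was -0.13, and 17 of 22 were below 0, but with TMM scaling, where the median of all genes was 0.11, 15 of 22 were above 0. No direction for these genes as a group can be read from that.

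The lipopolysaccharide-inducible list held Gpr84's nearest company by size of difference. Of its 26 tested genes 21 were at least 2-fold higher in the THP library and 0 at least 2-fold lower, beside 0.911% and 2.97% of all tested genes. The median log2 ratio was 1.86, beside -0.18 for all genes, and 23 were higher with TMM scaling. The list was chosen with results of these data known, so its direction is no independent evidence. The largest were Acod1 (67.8 and 4.34 CPM, log2 ratio 3.69), Saa3 (126 and 11.1 CPM, 3.39), Cxcl1 (54.3 and 5.50 CPM, 3.09), Ccl4 (2.88) and Il1b (67.3 and 9.58 CPM, 2.69). Irf1 (-0.35) and Ccl5 (-0.21) were within 2-fold and on the other side of 0. Nos2, inducible nitric oxide synthase, held 31 and 4 UMIs in all, and Il12b 51 and 146.

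**Figure D5:**
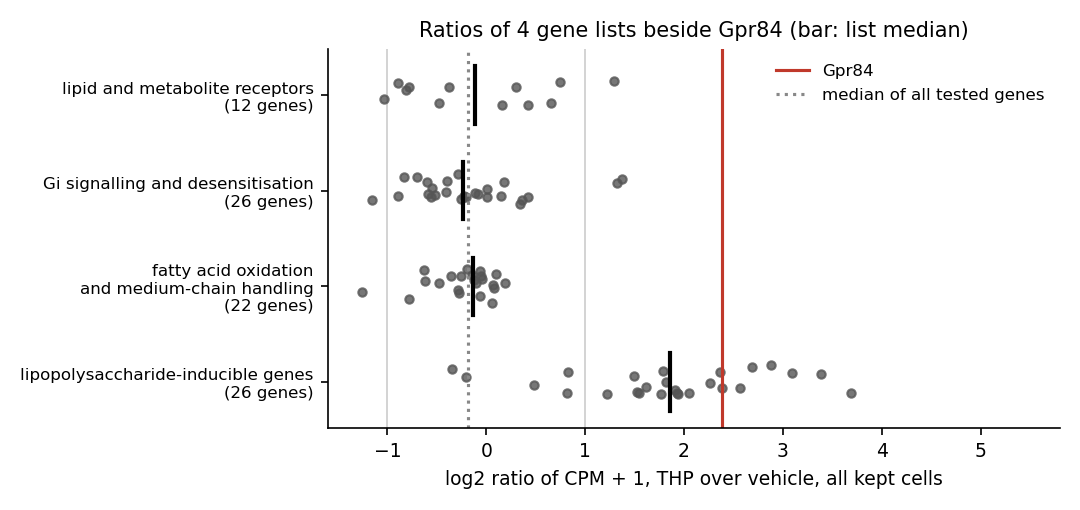
Log2 ratio of CPM + 1, THP over vehicle, over all kept cells for the tested genes of 4 lists (dots, with list medians as bars), the ratio of Gpr84 (red line, 2.38) and the median of all 8012 tested genes (dotted line, -0.18). Gpr84 lies beyond every gene of the first 3 lists and inside the range of the lipopolysaccharide-inducible list.

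Most neighbouring genes on the chromosome did not share the difference of Gpr84. Of the 3 nearest protein-coding genes on each side, Copz1, 8367 bases away, had a log2 ratio of 0.02, Nfe2 -0.72, Hnrnpa1 -0.09, Zfp385a, 3283 bases away, -0.16, and Gtsf1, a gene below 2 CPM in both libraries, 0.42. With TMM scaling the values of Hnrnpa1 and Zfp385a turned to 0.19 and 0.10, and Copz1 was at 0.30. Itga5, the integrin alpha 5 gene 33674 bases away, was the exception at 46.7 and 21.7 CPM. Its log2 ratio was 1.07 over all cells, 1.35 with TMM scaling, and 1.05 in marker-low macrophages. Without scaling, 0.911% of all tested genes were at least 2-fold higher.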

How the data were processed

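The deposited values are raw UMI counts per gene and barcode, written with software version 3.1.0 per the file headers. Cell Ranger, STAR, bcl2fastq and the build mm10 are named in the submitters' processing notes, and the sources used here do not state their settings. Barcodes with at least 500 genes, at least 1000 UMIs and at most 10% mitochondrial UMIs were kept. No doublet was removed. Cells were clustered with scanpy 1.11.5 (Leiden, resolution 0.5, 30 components of 2000 variable genes, Gpr84 left out). Each cell was also gated in a fixed order by summed marker UMIs per 10000, with minimums set with these data in view. CPM are summed UMIs per 1000000, and log2 ratios use CPM + 1, which understates the change of low genes. A gene was tested at 10 CPM or more in 1 library and called at 2-fold. With 1 library per group no p-value was computed. TMM and RLE factors came from edgeR 4.0.16. The ratio step was run on simulated counts over 31053 genes, of which 7749 were tested, and recovered 200 of 200 genes changed 3-fold. Those counts held counting error only, so this checks the calculation and not variation between libraries.

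Named genes were Gpr84, the 10 most like it over gated types, the 10 most like it between cells, the 3 nearest coding genes on each side and from each list at most 5 members, those of largest ratio. All other genes given values were added after these were seen. Gpr84, the lists and the rules were chosen with earlier results of these data known. Promoter windows are RefSeq's for GRCm38.p6, and coordinates are 1-based.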

Additional observations from a re-analysis of the deposited data

Results flagged for a closer look

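In the barcodes that the cell filter left out, which no comparison used, Gpr84 was at 310 CPM (288 to 333; 714 UMIs in 1070 barcodes) in the THP library, above the 53.1 CPM (41.9 to 66.5; 76 UMIs in 606 barcodes) of the vehicle library. The median depth of these barcodes was 1141 and 1237.5 UMIs. Their ratio of 5.83 (4.60 to 7.49) had an interval that includes the 5.34 of the kept cells.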

How the results depend on the processing

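The log2 ratio of Gpr84 over all kept cells was 2.38. It was 2.66 with TMM and with RLE factors, 2.13 with a pseudocount of 10, 2.37 with at most 5% mitochondrial UMIs, 2.37 without the top 5% of cells by UMIs and 2.30 with the same mix of gated types in both libraries. It stayed inside the counting interval of the main ratio with a pseudocount of 0.1, all deposited barcodes or equal weight per cell. The same held, added after seeing the data, without barcodes found in both libraries. That interval was built without a pseudocount, so it is not centred on these log2 ratios. The difference in share of cells (THP minus vehicle) was 38.7 percentage points at 5000 UMIs, 42.2 unthinned, 22.5 at 2000 UMIs, 49.3 at 10000 UMIs and 21.1 for cells with 2 or more UMIs. Gpr84 was at least 2-fold higher in 13 of 13 gates under each alternative run, and in 17 of 18 clusters. Of 65 ratios of single gates under alternatives, 20 fell outside such an interval of their gate and 0 changed sign. Alternatives with a larger pseudocount fall outside more easily by construction. Genes 2-fold higher numbered 138 with TMM or RLE factors and 187 at a 1.5-fold limit, and 2-fold lower 69 and 1387. Of the 10 genes most like Gpr84 between cells, 1 remained among the 10 with a minimum of 50 CPM, which removes genes by construction, and 3 at 2000 UMIs. No paired analysis was possible because each group had 1 library. Depth limits the 5 small gates, with 0 to 25 vehicle UMIs each.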
